A study of Homo sapiens with 12 samples.

Results

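The genes described here are the 10 that encode the cyclin-dependent kinase (CDK) inhibitors and the D cyclins. They were taken by symbol from a table of 58656 usable gene entries, and all 10 were found: the Cip/Kip inhibitors CDKN1A, CDKN1B and CDKN1C, the INK4 inhibitors CDKN2A, CDKN2B, CDKN2C and CDKN2D, and the cyclins CCND1, CCND2 and CCND3. RNA was sequenced from 4 established lines of diffuse large B-cell lymphoma, U2932, SUDHL-4, TMD8 and WSU-DLCL2. Cells of every line spent 18 hours in lenalidomide, in avadomide (CC-122) or in their solvent DMSO, so there were 12 libraries with a single one for each line and treatment. Both compounds are cereblon modulators, which make a ubiquitin ligase degrade the lymphoid transcription factors Ikaros and Aiolos. As background, U2932 and TMD8 are classed as activated B-cell lymphoma, while germinal-centre lymphoma gave rise to SUDHL-4 and WSU-DLCL2. The labels give no dose, so the compounds are not known to have been matched in dose. With no second library of any line and treatment, a difference within a line has no replicate check. The p-values set the mean difference of the 4 lines against a spread between lines that may be partly technical. That spread was estimated from all 12 libraries, so the treatment outside a comparison enters it too.

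D cyclins bind CDK4 or CDK6 in the first gap phase of the cell cycle, and the complex phosphorylates the retinoblastoma protein RB1, which frees E2F transcription factors to start the genes of DNA replication. INK4 proteins bind CDK4 and CDK6 and keep D cyclins from joining them. Cip/Kip proteins bind whole cyclin-CDK complexes, mainly those of CDK2, and are also carried by cyclin D complexes. In B-cell lymphoma the CDKN2A locus is often deleted or silenced, and CCND3 is a common D cyclin of germinal-centre B cells.

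Levels are the authors' log2 values, made by a normalization that the labels do not name. They resemble a regularized log of read counts, so differences of genes with low values are understated, and depth is unknown. The B cell markers MS4A1, CD79A, CD79B, PAX5 and CD22 were present in every library, at 14.27 or above, and with avadomide CD22 fell by 0.28. Over the 4 libraries of a treatment, the summed level of 6 T and NK cell markers ran from 8.22 to 13.04 with DMSO and from 9.32 to 12.82 with avadomide, most of it TRAC. Over the 12 libraries CD3D was below 0, CD3E ran from 1.01 in TMD8 to 6.17 in SUDHL-4, and CD8A reached 6.47 in TMD8. The summed level of 5 myeloid markers ran from 3.70 to 6.65 with DMSO and from 4.34 to 7.53 with avadomide, and that of 6 stromal and epithelial markers from 8.59 to 11.86 and from 10.4 to 11.8. In the latter, single genes stood high by line. EPCAM was at 10.58 to 10.99 in U2932 and at most 1.72 elsewhere. DCN was at 11.51 to 11.83 in SUDHL-4 and 10.26 to 10.51 in WSU-DLCL2. With avadomide NKG7 (of 4 tested T and NK markers), LYZ and FCN1 (of 5 myeloid) and COL1A1 and PECAM1 (of 5 stromal and epithelial) were called higher and DCN lower. Their part in the results below was not tested.

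Genes were tested where 4 or more libraries had log2 values of 1 or higher, which held for 9 of the 10. CDKN1C reached that value in 3 libraries, all of U2932, and is given by its levels. With avadomide against DMSO, 5 of the 9 were called higher and 0 lower at a limma Benjamini-Hochberg adjusted p of 0.05, namely CDKN1A, CDKN1B, CDKN2B, CDKN2C and CCND3. Of all 22528 genes tested, 24.8% were called, 13.6% higher and 11.2% lower, and 37.4% had an unadjusted p under 0.05, as the same 5 of the 9 did. The median difference was 0.218 (log2) over the 9 genes and 0.0106 over all genes tested. In 4 of 4 lines, 6 of the 9 were higher, as were 19.7% of all genes. These 6 were the called genes and CDKN2A, whose mean turned negative under both other scalings. The count includes TMD8 differences of 0.001 for CDKN2A and 0.11 for CDKN2B, in the line where both were lowest. Fewer cells with a transcript and less RNA per cell cannot be told apart in bulk samples. A value at least 0.5 above DMSO was seen for 0 of the 9 in U2932 (14.9% of all genes tested). SUDHL-4 had 3 such genes (7.84%), TMD8 had 2 (16%) and WSU-DLCL2 had 2 (15.5%). The balance of higher and lower calls depended on scaling: 3068 higher and 2514 lower genes became 1882 and 4828 once each library was centred on its median and 2544 and 3644 after quantile normalization.

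**Figure D1:**
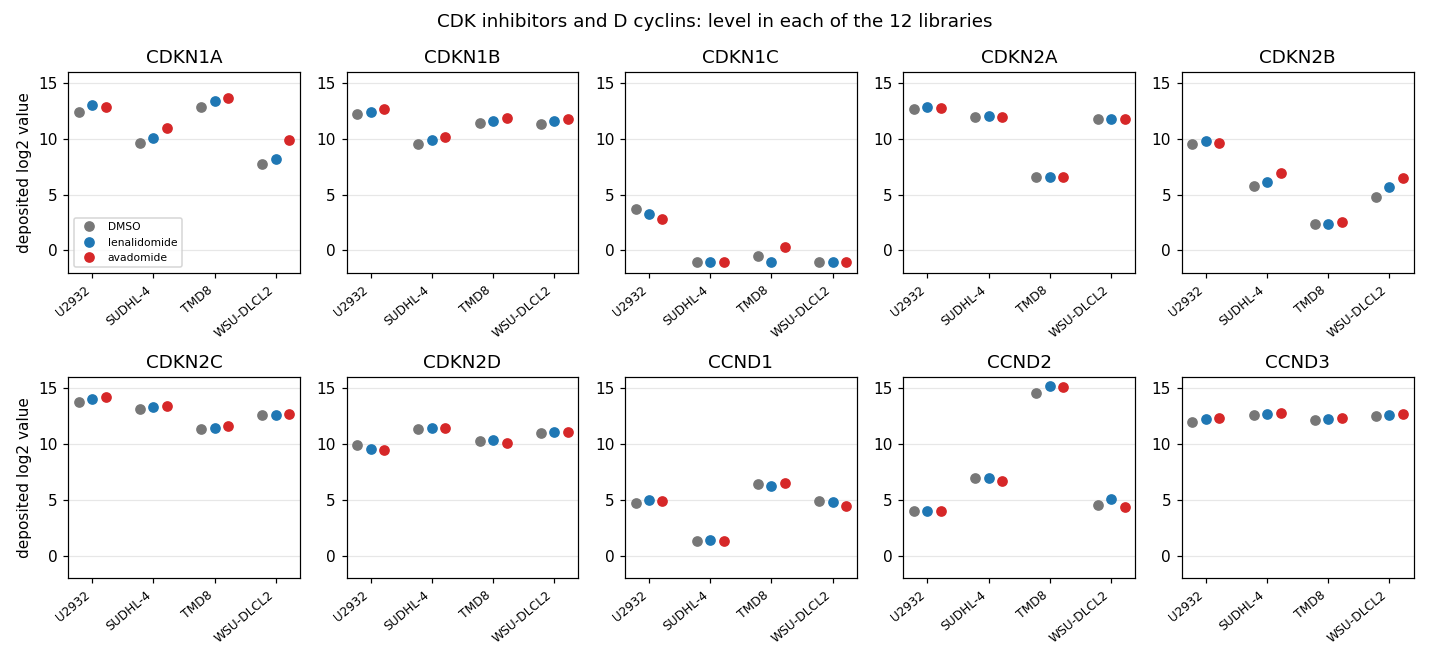
Deposited log2 value (y axis) of each of the 10 genes in the 12 libraries, with the 4 lines on the x axis and 1 point for each treatment. Lines differ far more than treatments for CDKN2A, CCND1 and CCND2, while CDKN1A shows its lowest value, 7.71, in WSU-DLCL2 with DMSO and its highest, 13.68, in TMD8 with avadomide.

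CDKN1A encodes p21, an inhibitor induced by DNA damage (chromosome 6, 36676460 to 36687339, GRCh38). With avadomide its level rose in 4 of 4 lines, on average by 1.19 ± 0.25 on the log2 scale (SE, n = 4; adjusted p = 0.00866 by limma), which is 2.28-fold. In U2932 CDKN1A stood at 12.42 with DMSO, 13.02 with lenalidomide and 12.85 with avadomide. In SUDHL-4 it stood at 9.64, 10.04 and 10.98 in the same order. TMD8 held 12.83, 13.42 and 13.68, and WSU-DLCL2 7.71, 8.15 and 9.85. Each difference shares its DMSO library with the level of the line, so a low DMSO value by itself widens it. The line with the least CDKN1A had the largest difference, 4.41-fold in WSU-DLCL2, against 2.53-fold in SUDHL-4, 1.81-fold in TMD8 and 1.34-fold in U2932. U2932 was also the line where the value with lenalidomide lay above that with avadomide. By level the lines ran TMD8, U2932, SUDHL-4, WSU-DLCL2, and the 3 libraries of TMD8 overlapped those of U2932, as did those of SUDHL-4 and WSU-DLCL2. The rise was 0.88 without WSU-DLCL2 and 1.45 without U2932, called both times. In a fit to the 8 libraries of these treatments alone it was not called (adjusted p = 0.0521). DINOL, a noncoding RNA gene on the other strand, overlaps an exon of CDKN1A, and whether reads were counted by strand is not stated.

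CDKN1B encodes p27, which holds CDK2 inactive in resting lymphocytes (chromosome 12, 12715058 to 12722371). It had the smallest adjusted p of the 9 genes. It rose with avadomide by 0.50 ± 0.04 (SE, n = 4 lines; limma adjusted p = 0.000286), or 1.41-fold. With DMSO, lenalidomide and avadomide in turn, CDKN1B stood at 12.20, 12.36 and 12.69 in U2932 and at 9.57, 9.88 and 10.19 in SUDHL-4. In TMD8 the values were 11.42, 11.56 and 11.89, and in WSU-DLCL2 11.36, 11.60 and 11.77. In every line the library with lenalidomide lay between the other two. The avadomide differences spanned 0.41 in WSU-DLCL2 to 0.62 in SUDHL-4. SUDHL-4 also had the lowest level of CDKN1B, which shares the DMSO library with the difference. U2932 was highest, and TMD8 and WSU-DLCL2 overlapped. The call held without any 1 line (adjusted p from 0.00177 to 0.00526).

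CDKN1C encodes p57, an imprinted inhibitor (chromosome 11, 2883213 to 2885773). In U2932 it stood at 3.67 with DMSO, 3.25 with lenalidomide and 2.77 with avadomide. In TMD8 it stood at -0.49, -1.07 and 0.29. SUDHL-4 and WSU-DLCL2 ranged from -1.07 to -1.03 over their 6 libraries, where the gene was silent or nearly so. Divided by exon length, the Cip/Kip RNA of U2932 and SUDHL-4 with DMSO was split almost evenly between CDKN1A (51.6% and 49.3% of the summed linear value per kb) and CDKN1B (48.2% and 50.7%). In TMD8 with DMSO, CDKN1A made up 71.0%. In WSU-DLCL2 it was 6.83% with DMSO, 7.81% with lenalidomide and 19.6% with avadomide.

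Promoter sequence is shown for CDKN1A, CDKN1B and CDKN2B, the members with the largest called changes, as the 250 bases before the RefSeq start on GRCh38.p14 (5′ to 3′ on the strand of the gene). RefSeq windows matched 7 of the 10 genes. Capitals mark the GC box GGGCGG on either strand, the motif of SP1-type factors. The windows are chr6:36678464-36678713 (plus strand), chr12:12717118-12717367 (plus) and chr9:22009306-22009555 (minus).
CDKN1A: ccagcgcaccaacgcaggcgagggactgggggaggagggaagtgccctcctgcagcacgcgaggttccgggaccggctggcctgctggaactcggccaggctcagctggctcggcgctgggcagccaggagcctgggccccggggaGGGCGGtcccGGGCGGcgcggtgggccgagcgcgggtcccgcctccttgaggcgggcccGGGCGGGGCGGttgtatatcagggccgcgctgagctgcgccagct
CDKN1B: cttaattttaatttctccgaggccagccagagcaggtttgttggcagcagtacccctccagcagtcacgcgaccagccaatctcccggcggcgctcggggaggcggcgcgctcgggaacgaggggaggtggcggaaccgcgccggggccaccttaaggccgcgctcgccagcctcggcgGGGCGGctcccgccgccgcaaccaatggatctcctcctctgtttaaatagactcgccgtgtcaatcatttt
CDKN2B: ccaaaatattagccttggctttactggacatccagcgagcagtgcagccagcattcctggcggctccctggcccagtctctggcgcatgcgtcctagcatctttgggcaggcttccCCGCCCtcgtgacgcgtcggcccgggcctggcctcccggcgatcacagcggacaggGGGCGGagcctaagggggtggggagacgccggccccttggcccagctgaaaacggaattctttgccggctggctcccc
CDKN1A held 4 GC boxes, a pair of them overlapping by 1 base, CDKN1B held 1 and CDKN2B 2, and 42.6% of all 35116 windows held at least 1. These 3 windows had no match, on either strand, to the Ikaros core TGGGAA (in 20.8% of all windows), the E-box CACGTG (6.34%), an interferon response element, GAAA repeated after a pair of any bases (3.02%), or the E2F site TTTCGCGC (0.439%). None of these motifs holds another. A match describes letters and not a bound site.

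Among the INK4 genes, CDKN2A encodes p16INK4a and, in another reading frame, ARF, which restrains MDM2 (chromosome 9, 21967753 to 21995301). A gene-level table cannot separate these products. U2932 held CDKN2A at 12.71 with DMSO, 12.89 with lenalidomide and 12.79 with avadomide. In SUDHL-4 the values were 11.91, 12.04 and 11.95, and in WSU-DLCL2 11.73, 11.78 and 11.76. TMD8 stood apart at 6.59 in all 3 libraries. The lines did not overlap. The 3 TMD8 values spanned 0.00182, and of 1240 other tested genes within 0.5 of that level in TMD8, whose median span was 0.337, 0 had a span as small. The transform can give a gene with few or no reads a value above 0, so whether any CDKN2A RNA was present in TMD8 cannot be told from these values. MTAP, the enzyme gene beside CDKN2A that is often lost with it, stood at 6.50 to 6.51 in TMD8 and at 11.86 to 12.17 in the other lines. CDKN2B-AS1, the antisense RNA of the locus, stood at 2.35 to 2.37 in TMD8, 6.10 to 6.64 in SUDHL-4 and WSU-DLCL2, and 8.63 to 8.92 in U2932. It overlaps an exon of CDKN2A on the other strand. Whether reads were counted by strand is not stated, so the values of these genes may not be separate. RNA values cannot tell a deletion of this region in TMD8 from silencing. ELAVL2, further along the chromosome, was below 0 in all 12 libraries and DMRTA1 was between -0.65 and 1.99, lowest in TMD8.

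**Figure D2:**
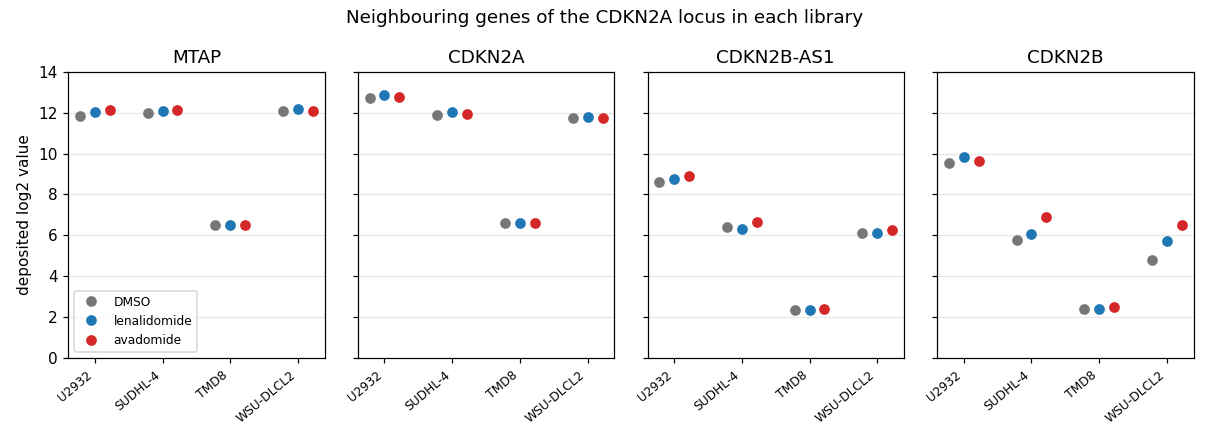
Deposited log2 value (y axis) of 4 neighbouring genes of chromosome 9 in each library, by line (x axis) and treatment (colour). All 4 are lowest in TMD8, where MTAP and CDKN2A stand near 6.5 and 6.59 in every library.

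CDKN2A showed no called change, at 0.04 with a 95% interval from -0.05 to 0.13 with avadomide (limma adjusted p = 0.544) and 0.09 with an interval from -0.0021 to 0.18 with lenalidomide (adjusted p = 0.397). Without TMD8 the avadomide value was 0.05. CDKN2B, which encodes p15, an inhibitor induced by TGF-beta (chromosome 9, 22002903 to 22009363), rose with avadomide by 0.77 ± 0.25 (SE, n = 4 lines; limma adjusted p = 0.0461). The change was uneven. SUDHL-4 went from 5.75 with DMSO to 6.08 with lenalidomide and 6.89 with avadomide, and WSU-DLCL2 from 4.78 to 5.70 and 6.51. U2932, with the highest level, stood at 9.55, 9.81 and 9.64, and TMD8 at 2.39, 2.39 and 2.51. The avadomide differences were thus 2.20-fold in SUDHL-4 and 3.32-fold in WSU-DLCL2, against 1.07-fold in U2932 and 1.08-fold in TMD8. SUDHL-4 and WSU-DLCL2 overlapped in level and the other lines did not. The call held in 2 of 11 alternatives, without TMD8 (0.99; adjusted p = 0.0366) and with a stricter filter on low values, and was lost without U2932 (0.99; 0.0514), SUDHL-4 (0.65; 0.178) or WSU-DLCL2 (0.45; 0.217). CDKN2B-AS1, which spans CDKN2B on the other strand without a shared exon, had no called change.

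CDKN2C encodes p18, an INK4 inhibitor with a role in B-cell differentiation (chromosome 1, 50960745 to 50974633). It rose with avadomide by 0.27 ± 0.06 (SE, n = 4 lines; limma adjusted p = 0.0102), or 1.20-fold, in 4 of 4 lines. With DMSO, lenalidomide and avadomide it stood at 13.73, 14.04 and 14.19 in U2932, and at 13.15, 13.33 and 13.42 in SUDHL-4. In TMD8 the values were 11.37, 11.40 and 11.64, and in WSU-DLCL2 12.58, 12.64 and 12.65. The lines did not overlap in level, and lenalidomide lay between DMSO and avadomide in each. The difference ran from 0.07 in WSU-DLCL2 to 0.46 in U2932, and without U2932 the call was lost (0.20; adjusted p = 0.0552). CDKN2D, which encodes p19 (chromosome 19, 10566462 to 10569059), had no called change, at -0.11 with a 95% interval from -0.30 to 0.08 with avadomide (adjusted p = 0.396). Its differences had opposite signs in different lines. U2932 stood at 9.91 with DMSO, 9.58 with lenalidomide and 9.48 with avadomide, and TMD8 at 10.31, 10.32 and 10.08. SUDHL-4 stood at 11.36, 11.43 and 11.45 and WSU-DLCL2 at 10.97, 11.04 and 11.10. Per kb of exon, CDKN2C was the largest part of INK4 RNA with DMSO in U2932 (63.2%), SUDHL-4 (50.7%) and WSU-DLCL2 (46.4%). In TMD8, where CDKN2D made up 50.6% and CDKN2C 48.0%, the order was the reverse, by a margin that has no replicate check. CDKN2A made up 24.0%, 16.5% and 19.8% in the first 3 of these lines.

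**Figure D3:**
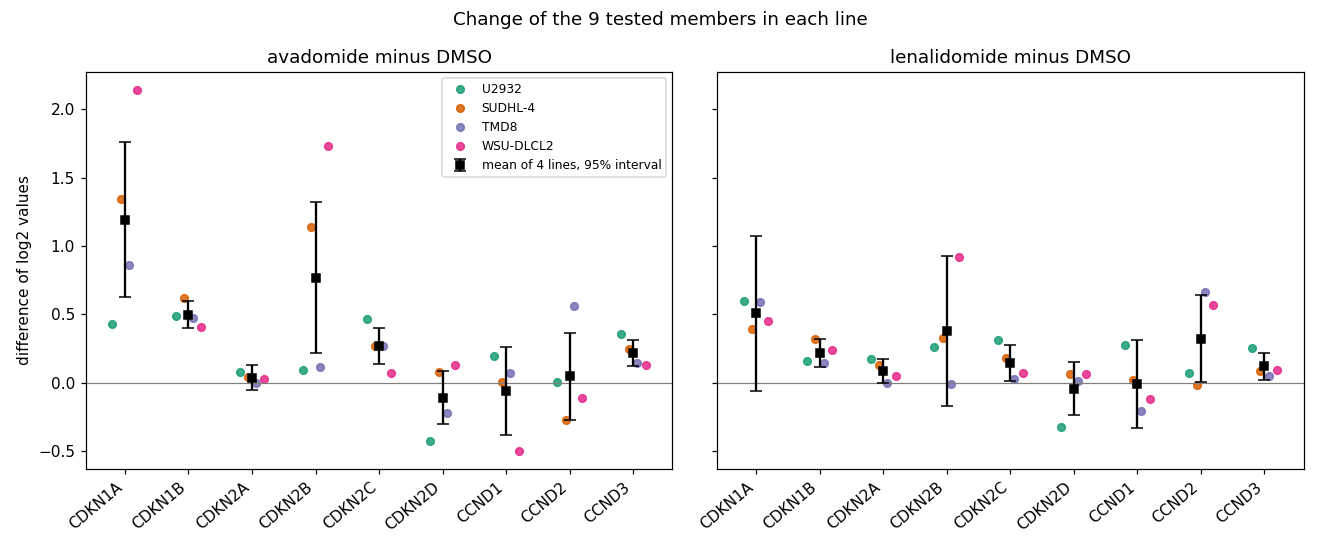
Difference of log2 values from DMSO (y axis) for the 9 tested genes with avadomide (left) and lenalidomide (right), with a coloured point for each line and a square with its 95% interval for the mean of 4 lines. The 4 lines lie close together for CDKN1B, from 0.41 to 0.62 with avadomide, and far apart for CDKN1A and CDKN2B, where WSU-DLCL2 is highest at 2.14 and 1.73.

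Among the D cyclins, CCND3, the cyclin present at a like level in all lines (chromosome 6, 41934933 to 42050357), rose with avadomide by 0.22 ± 0.04 (SE, n = 4 lines; limma adjusted p = 0.00660), or 1.16-fold, in 4 of 4 lines. With DMSO, lenalidomide and avadomide it stood at 11.97, 12.22 and 12.32 in U2932, and at 12.58, 12.66 and 12.82 in SUDHL-4. In TMD8 it stood at 12.17, 12.22 and 12.31, and in WSU-DLCL2 at 12.55, 12.64 and 12.68. SUDHL-4 overlapped WSU-DLCL2 and TMD8 overlapped U2932. Centring each library on its median moved the median avadomide difference of all genes from 0.0106 to -0.0996. There CCND3 stood at 0.11 (adjusted p = 0.159) and CDKN2C at 0.16 (0.0795), not called, while CDKN1A at 1.08 (0.0124) and CDKN1B at 0.39 (0.00220) still passed. In the fit to the 8 compared libraries CCND3 (adjusted p = 0.0697) and CDKN2C (0.0714) were not called either. The noncoding AL513008.1 overlaps CCND3 on the other strand.

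CCND2 (chromosome 12, 4273772 to 4305350) differed between lines more than any other of the 10 genes. In TMD8 it stood at 14.57 with DMSO, 15.23 with lenalidomide and 15.13 with avadomide. SUDHL-4 held 6.98, 6.97 and 6.71, WSU-DLCL2 4.49, 5.06 and 4.38, and U2932 3.95, 4.02 and 3.95. The 4 lines did not overlap, and TMD8 stood far above the others. CCND2 had no called change, at 0.05 with a 95% interval from -0.27 to 0.36 with avadomide (limma adjusted p = 0.847). In TMD8, where the gene was abundant, the library with avadomide was 1.48-fold and that with lenalidomide 1.58-fold above DMSO, without a replicate. The antisense gene CCND2-AS1 overlaps its exons and stood at 3.32, 4.01 and 4.62 in TMD8, and at most at -0.10 elsewhere. CCND1 (chromosome 11, 69641087 to 69654474), the cyclin of mantle cell lymphoma, was low: 6.21 to 6.48 in TMD8, 4.73 to 5.01 in U2932, 4.43 to 4.93 in WSU-DLCL2 and 1.34 to 1.36 in SUDHL-4. U2932 and WSU-DLCL2 overlapped. The SUDHL-4 values spanned 0.02, and 15 of 2097 other genes within 0.5 of that level had a span as small. Whether any CCND1 RNA was present in SUDHL-4 thus cannot be told from these values. The avadomide difference of CCND1 was -0.06 with a 95% interval from -0.38 to 0.26 (limma adjusted p = 0.813). LTO1 overlaps an exon of CCND1 on the other strand.

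Per kb of exon, CCND3 made up 98.3% to 99.4% of the D cyclin RNA in U2932, SUDHL-4 and WSU-DLCL2 under all 3 treatments. Shares of this kind, here and for the inhibitors, are approximate, since the linear values come from a scale whose transform is not stated. In TMD8 CCND2 made up 80.7% with DMSO, 86.5% with lenalidomide and 84.8% with avadomide, and CCND3 18.9%, 13.3% and 14.9%. TMD8 was thus the line where most D cyclin RNA was CCND2 and where CDKN2A and CDKN2B were at their lowest.

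**Figure D4:**
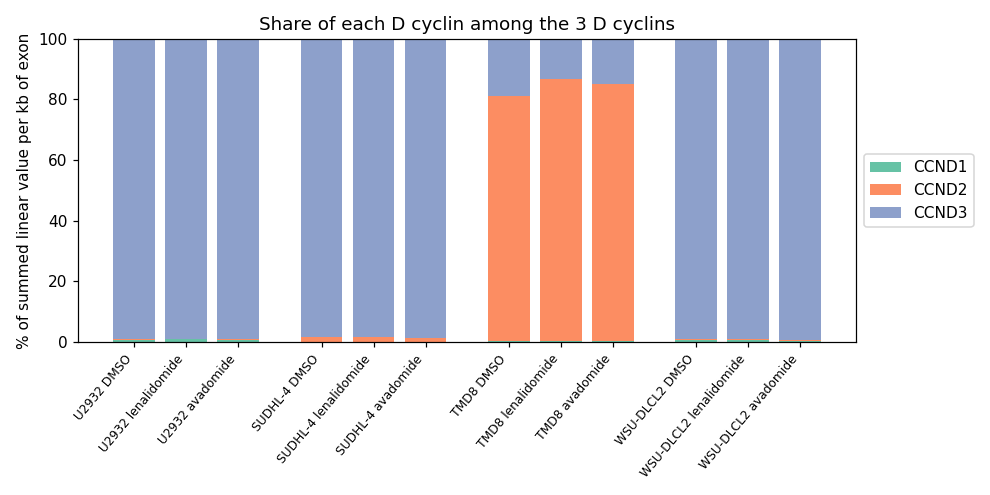
Percentage of the summed linear value per kb of exon (y axis, bars from 0) for CCND1, CCND2 and CCND3 in each of the 12 libraries (x axis). CCND3 fills at least 98.3% in 3 lines, and CCND2 fills 80.7% to 86.5% in TMD8.

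With lenalidomide against DMSO the mean difference was nearer to 0 than with avadomide for 7 of the 9 genes and further from it for CCND2 and CDKN2A. None of the 9 genes was called by limma (0 of 9, where 0.235% of all genes were called, 0.226% higher and 0.00888% lower), and 4 had an unadjusted p under 0.05, as 13% of all genes did. CDKN1A, CDKN1B, CDKN2C and CCND3 were higher in 4 of 4 lines (4 of 9, where 14.6% of all genes were). A value at least 0.5 above DMSO was seen for 1 of the 9 in U2932 (7.72% of all genes), 0 in SUDHL-4 (4.07%) and 2 each in TMD8 (7.42%) and WSU-DLCL2 (7.38%). CDKN1B had the smallest adjusted p of the 9, at 0.22 ± 0.04 (SE, n = 4 lines; adjusted p = 0.0807). CDKN1A stood at 0.51 ± 0.25 (adjusted p = 0.439), with a narrower spread of lines than with avadomide, from 0.40 in SUDHL-4 to 0.60 in U2932. The SE comes from all 12 libraries, so the uneven avadomide values enter it. In a fit to the 8 libraries of DMSO and lenalidomide, CDKN1A (adjusted p = 0.00891) and CDKN1B (0.0364) were called. CDKN2C stood at 0.15 ± 0.06, CCND3 at 0.12 ± 0.04, CDKN2B at 0.38 ± 0.25 and CCND2 at 0.32 ± 0.14, the last made of 0.66 in TMD8, 0.57 in WSU-DLCL2, 0.07 in U2932 and -0.02 in SUDHL-4. The 95% interval was 0.015 to 0.28 for CDKN2C, 0.02 to 0.22 for CCND3 and -0.17 to 0.92 for CDKN2B, so missed thresholds do not show that these RNAs stayed at their DMSO level. CDKN2D stood at -0.04 with an interval from -0.24 to 0.15 and CCND1 at -0.01 with one from -0.33 to 0.32.

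Set against lenalidomide at doses not known to match, avadomide gave higher CDKN1B in 4 of 4 lines, by 0.28 ± 0.04 (SE, n = 4 lines; limma adjusted p = 0.0177). It was the called gene among the 9 (1 of 9, where 4.73% of all genes were called, 2.51% higher and 2.22% lower). An unadjusted p under 0.05 was found for 2 of the 9 (22.1% of all genes), and 3 were higher in 4 of 4 lines (16.7%). The difference was smallest in WSU-DLCL2, at 0.17, and 0.30 to 0.33 in the other lines. The call was lost without U2932 (adjusted p = 0.103), TMD8 (0.0725) or WSU-DLCL2 (0.0917) and after median centring (0.0744). CDKN1A differed by 0.68 with a 95% interval from 0.12 to 1.25 (adjusted p = 0.150). Its difference was 1.69 in WSU-DLCL2 and 0.95 in SUDHL-4, but 0.27 in TMD8 and -0.17 in U2932. CCND2 was lower with avadomide than with lenalidomide in 4 of 4 lines, at -0.28 with an interval from -0.59 to 0.04 (adjusted p = 0.287). As background, both molecules carry the glutarimide that binds cereblon, on an isoindolinone in lenalidomide and on a quinazolinone in avadomide.

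The partners of these proteins were read from a list of 25 genes, all tested. With avadomide 4 were called higher and 8 lower, against 13.6% and 11.2% of all genes, and the list's median difference was -0.0841. The kinases parted: CDK6 rose by 0.17 ± 0.04 (limma adjusted p = 0.00734), CDK4 fell by 0.25 ± 0.05 (0.00450), and CDK2 stood at -0.01 ± 0.03. RB1, the substrate of the D cyclin kinases, rose by 0.41 ± 0.04 (adjusted p = 0.000420) in 4 of 4 lines, and its relatives RBL1 and RBL2 had no called change. Among E2F factors, the activators E2F1 and E2F2 fell by 0.44 ± 0.07 and 0.29 ± 0.08, E2F2 in 3 of 4 lines. The activator E2F3 stood at 0.05 ± 0.04 and was not called. The repressor E2F8 fell by 0.29 ± 0.06 and E2F4 by 0.14 ± 0.04, while E2F7 and E2F6, repressors too, rose by 0.48 ± 0.10 and 0.22 ± 0.05. Cyclin E1 (CCNE1), the partner of CDK2 at the start of replication, fell by 0.33 ± 0.06. CCNE2 at 0.18 ± 0.14, CCNA2 at 0.06 ± 0.05 and CDC25A at -0.14 ± 0.06 were not called. SKP2, which marks p27 for destruction, stood at -0.06 ± 0.06, and of its helpers CKS1B fell by 0.19 ± 0.06 and CUL1 by 0.09 ± 0.03. Calls were lost in at least 6 of 11 alternatives for E2F2, E2F4, CKS1B and CUL1, without WSU-DLCL2 for CDK6 (adjusted p = 0.0622) and E2F7 (0.0524), and after median centring for CDK6 and E2F6. With lenalidomide 0 of the 25 were called by limma (0.235% of all genes) and 7 had an unadjusted p under 0.05 (13% of all genes), with RB1 at 0.19 ± 0.04 (adjusted p = 0.0958). Against lenalidomide, avadomide gave higher RB1 by 0.22 ± 0.04 (adjusted p = 0.0261), a call that ended in each fit without 1 line (adjusted p up to 0.110).

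Of 17 genes that are known to regulate the CDK inhibitors or D cyclins, 16 were tested, KLF4 being below 0 in all libraries. With avadomide 4 were called higher and 3 lower, against 13.6% and 11.2% of all genes, and the list's median difference was 0.000191. BMI1, a Polycomb protein that represses CDKN2A, rose by 0.73 ± 0.07 with avadomide (limma adjusted p = 0.000310) and by 0.56 ± 0.07 with lenalidomide (0.0345), in 4 of 4 lines each. It shares sequence with a read-through gene from its neighbour, so its value is uncertain, and the lenalidomide call was lost in 7 of 11 alternatives, among them without U2932, SUDHL-4 or WSU-DLCL2 (adjusted p up to 0.432). EZH2, the Polycomb methyltransferase, fell by 0.15 ± 0.05 with avadomide (adjusted p = 0.0435). The stress factor KLF6, which can induce CDKN1A, rose by 0.24 ± 0.04 and FOXO1, which drives CDKN1B, by 0.18 ± 0.05. STAT5A rose by 0.73 ± 0.22, in 3 of 4 lines, and STAT5B fell by 0.26 ± 0.04. MYC, which represses CDKN1A and CDKN2B, fell by 0.37 ± 0.05 with avadomide and was lower than with lenalidomide by 0.24 ± 0.05 (adjusted p = 0.0378), a call lost without U2932, TMD8 or WSU-DLCL2. The ubiquitin ligase gene MDM2 stood at 0.14 ± 0.06 and was not called. Calls were lost in at least 7 of 11 alternatives for EZH2, FOXO1 and STAT5A.

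**Figure D5:**
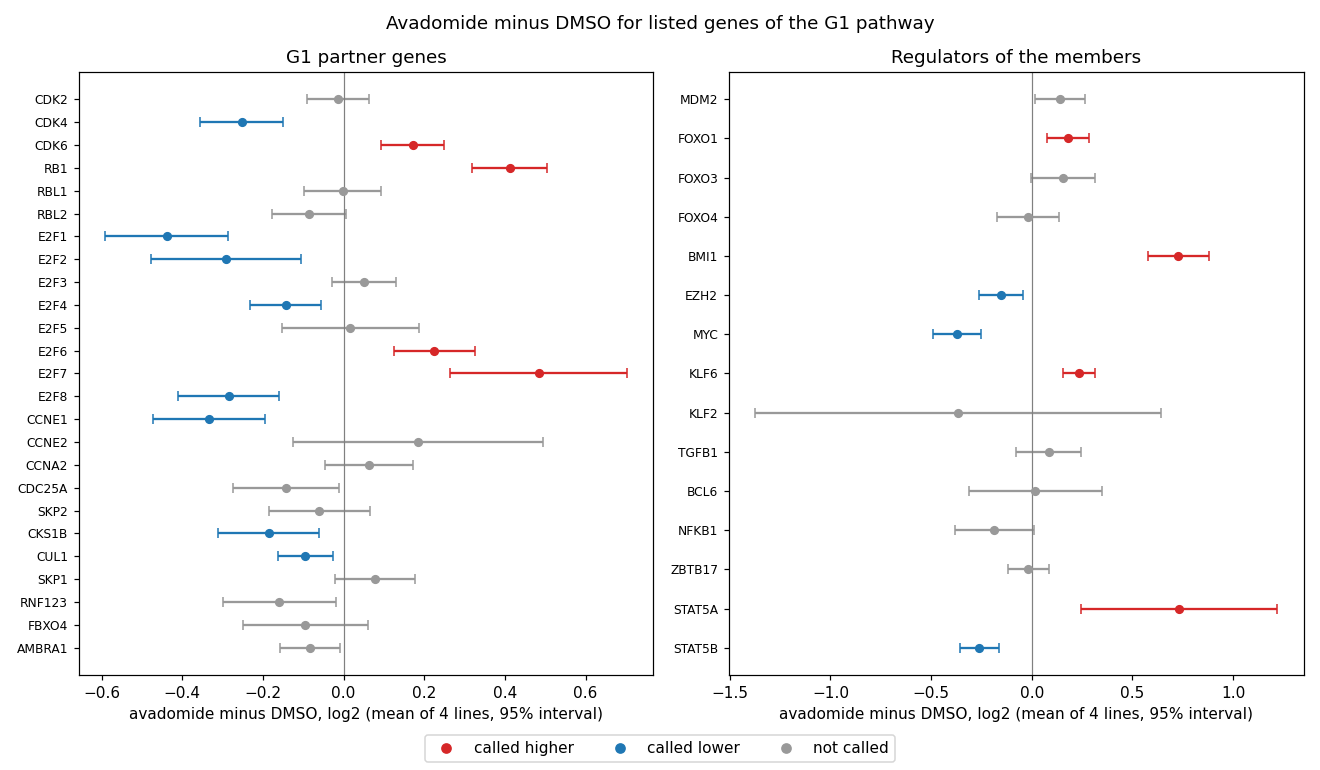
Avadomide minus DMSO in log2 (x axis; mean of 4 lines with its 95% interval) for the 25 G1 partner genes (left) and the regulators reported here (right), coloured by call. RB1 lies at 0.41 and E2F1 at -0.44, and BMI1 at 0.73 is called higher while MYC at -0.37 is called lower.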

How the data were processed

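RNA abundance was measured in 12 libraries of 4 lymphoma lines and 3 treatments. The authors deposited a single table of log2 values, from -2.41 to 20.1. Per the submitters' processing notes, STAR, Salmon and hg38 were used, with no version or role stated, and no source used here gives the normalization or transform. Depth is unknown, so no counting interval is given. Of 58684 entries, 28 whose symbol had become a date were left out. Columns were matched to samples by title.

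The 22528 genes with log2 values of 1 or higher in 4 or more libraries entered limma 3.58.1 in R 4.3.3, two-sided, with an intensity trend, treatment and cell line as factors and 6 residual degrees of freedom. Genes were called at a Benjamini-Hochberg adjusted p under 0.05 over all genes tested. Cell line pairs the libraries: deviations from treatment means correlated at 0.918 to 0.977 where libraries shared a line. They correlated at -0.574 to 0.199 where both line and treatment differed. Centring on treatment means by itself lowers the values between lines, so part of this gap is built in. Each line's difference is treated minus DMSO. Values per kb divide the linear value by the union exon length of GENCODE 29, which need not match the transcripts present. GENCODE 29 is on GRCh38, the build named as hg38. The fit was tested on simulated data. The genes and lists were chosen with earlier results of these data known. Named are the 10 genes, all called genes of the partner and regulator lists, and for each called member the 3 genes most like it, clone-type names left out. Values of some listed genes are not reported here. Alternatives were another scaling (quantile, median), filter, variance prior, no block, the compared libraries alone and leaving out each line.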

Additional observations from a re-analysis of the deposited data

Results flagged for a closer look

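In 6 of 60 groups of 4 lines, 1 line lay far from the other 3, where chance flags about 1 group in 20 for normal values. Groups of the same gene share lines and libraries, so 6 of 60 cannot be set against that rate as separate draws. CDKN2A stood at 6.59 in TMD8 with DMSO, against 11.73 in the next line, and at 6.59 with avadomide, against 11.76. CDKN1C stood at 3.67 in U2932 with DMSO, against -0.49 in the next line, and at 3.25 with lenalidomide, against -1.03. The lenalidomide difference of CDKN2D was -0.32 in U2932, against 0.01 in the next line. The difference of CDKN1B between avadomide and lenalidomide was 0.17 in WSU-DLCL2, against 0.30 in the next line.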

How the results depend on the processing

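With 1 library per line and treatment, the line is the only replicate. Without it as a replicate block, 0 genes were called by limma in any of the 3 comparisons (at an unadjusted p under 0.05, 514 for avadomide and 61 for lenalidomide, each against DMSO, and 110 between the compounds), and all calls of the 10 genes ended. In fits to the 8 libraries compared, 1376 avadomide and 669 lenalidomide genes were called, against 5582 and 53. Lenalidomide calls numbered 21 after quantile normalization, 132 with the stricter filter and 1 without the intensity trend. They were 0 by limma after median centring (2448 at an unadjusted p under 0.05) and without a filter (3609). Against lenalidomide, avadomide gave 1065 calls, which became 1734 after median centring, 220 without a filter and 10 without the trend. Leaving out 1 line gave 2666 (WSU-DLCL2) to 4644 (SUDHL-4) avadomide calls, with 3315 without U2932. It gave 0 (without U2932 or WSU-DLCL2; 1849 and 1904 at an unadjusted p under 0.05) to 67 lenalidomide calls, with 1 without SUDHL-4, and 0 (without U2932; 3918 at an unadjusted p under 0.05) to 507 calls between the compounds, with 62 without TMD8 and 15 without WSU-DLCL2. Of 297 values of the 9 tested genes under these alternatives, 270 kept their side of the threshold, 25 lost a call and 2 gained one, and no called value changed sign. The cause was not tested. Unknown depth and the shrunken scale limit what can be said of CDKN1C, CCND1 and the TMD8 values of CDKN2A and CDKN2B.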

Other observations

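Genes whose values, centred on each line's mean, ran most like the 5 called members over the 12 libraries were found by Pearson's correlation. Tested genes with clone-type names were left out of the search. It is a description with no p, since the libraries share lines and controls. The choice used the same values as the calls, so a rise with avadomide was built into it. Changes and adjusted p-values of the chosen genes are thus no added evidence. For CDKN1B the genes were FAM63B (r = 0.992), a deubiquitinase gene, BROX (0.984), of membrane sorting, and PGAP1 (0.983), an enzyme of lipid anchors. FAM63B and PGAP1 were called higher with avadomide, by 0.51 ± 0.04 and 0.62 ± 0.05 (limma adjusted p = 0.000274 for each), and BROX by 0.36 ± 0.05 (0.000969). For CDKN1A the genes were RNU6-1157P (r = 0.975), TEX19 (0.974) and the DNA break sensor NBN (0.973). With avadomide NBN rose by 0.34 ± 0.06 (limma adjusted p = 0.00267) and TEX19 by 0.65 ± 0.17 (0.0228), and RNU6-1157P stood at 0.32 ± 0.13 (0.101), not called. For CDKN2B they were BEND5 (0.985), the glycosyltransferase B3GNT5 (0.985) and the kinase NLK (0.983). BEND5 stood at 0.66 ± 0.26 (adjusted p = 0.0993) and B3GNT5 at 1.39 ± 0.45 with avadomide (0.0501), not called, and NLK rose by 0.22 ± 0.06 (0.0223). For CDKN2C they were MC4R (0.983), AMMECR1 (0.982) and HSDL2 (0.974), and for CCND3 FAM206A (0.988), NSUN3 (0.986) and GOPC (0.976). Of these 6, FAM206A stood at 0.11 ± 0.04 with avadomide (limma adjusted p = 0.0599), not called, and the other genes rose by 0.17 (NSUN3) to 0.69 (MC4R).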
